A study of Mus musculus with 8 samples.

Results

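The genes described here encode the nuclear subunits of the oxidative phosphorylation machinery. They were chosen by symbol from 21080 gene symbols: every symbol of the Ndufa, Ndufb, Ndufc, Ndufs, Ndufv, Uqcr, Cox4 to Cox8 and Atp5 series, and Sdha, Sdhb, Sdhc and Sdhd, without the Ndufaf assembly factors and without pseudogenes. This rule gave 83 genes: 36 of complex I, 4 of complex II, 8 of complex III, 18 of complex IV (with Ndufa4 and Ndufa4l2, now placed there) and 17 of complex V. RNA-seq was performed on bone marrow-derived macrophages (BMDMs, obtained by culturing marrow cells with M-CSF) from C57BL/6 mice. Nudt21-cKO mice carried floxed Nudt21 alleles (fl/fl, exons 2 to 3) and LysM-Cre (active in myeloid cells), and WT mice were sex-matched littermates that also carried LysM-Cre. The 4 groups were WT at 0 h, cKO at 0 h, WT after overnight IFNγ and 4 h of LPS, and cKO after the same stimulation, with 2 samples each, and each sample pooled the cells of 2 mice. The age of the mice is not given in the sources used here. The titles place 4 samples at 0 h, although their treatment labels also name the stimulation.

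Oxidative phosphorylation turns the energy of NADH and succinate into ATP at the inner mitochondrial membrane. Complex I takes electrons from NADH and complex II from succinate, both pass them to ubiquinone, complex III hands them to cytochrome c and complex IV to oxygen, and complex V, the ATP synthase, uses the proton gradient that results. Macrophages activated by IFNγ and LPS are known for turning towards glycolysis and for using complex I and complex II in ways other than ATP production, and Nudt21, the small subunit of cleavage factor I, binds UGUA motifs in nascent RNA and helps choose the polyadenylation site.

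The promoters of these genes are known for motifs of NRF1, of ETS factors such as GABPA, and of YY1, and RefSeq promoters (GRCm38.p6, 250 bases before to 50 after the start site) were matched for 68 of the 83 genes. The NRF1 core GCATGCGC was present on either strand in 10 of the 68 (14.7%), against 4.72% of 14609 genes with a promoter. The YY1 core AAGATGGC was also present in 10 (14.7%), against 4.23%, and the ETS core CCGGAAG in 17 (25%), against 15.6%. A match is a description of the sequence and does not show binding. The windows below, from RefSeq, are shown as examples of promoters that hold these motifs, are written 5′ to 3′ along the gene, and have the motif in capitals. The first 3 hold the NRF1 core, the next 3 the ETS core as its reverse complement CTTCCGG, and the last 2 the YY1 core, of which the Atp5f1 window holds the reverse complement GCCATCTT. They lie at chr2:36049329-36049356 (Ndufa8), chr5:108434430-108434457 (Atp5k), chr5:115349101-115349128 (Cox6a1), chr7:30626126-30626152 (Cox6b1), chr19:7217605-7217631 (Cox8a), chr2:174464187-174464213 (Atp5e), chr3:105959249-105959276 (Atp5f1) and chr6:126849098-126849125 (Ndufa9), all on the minus strand.
Ndufa8: cgctggagacGCATGCGCagatggtacc
Atp5k: tcactgcggcGCATGCGCctttctggct
Cox6a1: ggaacggggcGCATGCGCgctctcgctc
Cox6b1: cctctcgcagCTTCCGGccagtcggaa
Cox8a: ttccgaaataCTTCCGGctcgggcgtc
Atp5e: acggccacagCTTCCGGtagccgctcg
Atp5f1: tgtgcgagcgGCCATCTTgctcctgccc
Ndufa9: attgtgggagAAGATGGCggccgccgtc

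The deposited value is the mean read coverage per base of a gene, which is a level per length and can be compared between genes. Summed over all genes it lay between 14950347 and 17954882 in the 8 samples, and the number of reads behind a value is unknown. The deposited values are not scaled between samples. The median coverage of the genes tested was 155 to 172 at 0 h and 52.2 to 73.0 at 4 h. Levels below were therefore scaled on the median gene (the median of ratios to the geometric mean over the 8 samples) unless a sentence says otherwise, and 82 of the 83 genes, all but Cox8b, reached a mean of 0.5 and were tested with limma among 16125 genes. With equal summed coverage in place of this scaling, the log2 fold change of the median gene, 4 h against 0 h, moved from -0.14 to -1.19 in WT and from -0.10 to -1.06 in cKO, so stimulation effects are given on both scales where a direction is stated, while levels are on the median-gene scale. Nudt21 itself was at 518 and 465 in WT samples and 110 and 111 in cKO samples before stimulation. After it, WT samples stood at 907 and 839 and cKO samples at 181 and 145. It was lower in every cKO sample. Macrophage markers were high in all samples (8 markers, summed 85616 to 107910), while 6 markers of T, B and NK cells summed to at most 3.80. The 8 markers of neutrophils and their precursors summed to 17285 to 23733 at 0 h and 28849 to 32560 at 4 h, mostly from S100a8, S100a9 and Ngp. Of the others, Ltf was at 839 to 1546, Camp at 289 to 868, Elane at 115 to 307 and Mpo at 96.5 to 207 in all samples. Ly6g was at 0 to 6.82. Dendritic cell markers summed to 19.2 to 88.9, those of fibroblasts and stroma to 60.7 to 188, erythroid markers to at most 3.80 and the 1 mast cell marker measured to at most 8.71. Markers also differed by genotype at 0 h, with Adgre1 at 14529 and 17735 (WT) and 9608.5 and 9207 (cKO), Fcgr1 at 1834 and 1738 (WT) and 917 and 862 (cKO), and Cd68 at 32842 and 31113 (WT) and 48260 and 47274 (cKO). Since these markers moved with time and genotype, and a bulk sample cannot separate fewer cells from less RNA per cell, their part in the results was not tested.

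The subunits held about the same share of the transcriptome in all groups. Together the 83 genes took 1.06% ± 0.144 of the summed coverage in WT and 1.09% ± 0.0161 in cKO at 0 h, and 1.003% ± 0.0265 in WT and 1.07% ± 0.00692 in cKO at 4 h (mean ± SD, n = 2 each). The complexes differed within this sum. The share of complex I was 0.310% and 0.253% (WT) and 0.277% and 0.279% (cKO) at 0 h. At 4 h it was 0.199% and 0.211% (WT) and 0.235% and 0.234% (cKO). All 4 stimulated samples lay below all 4 samples at 0 h. The share of complex II was 0.0701% and 0.0670% (WT) and 0.0731% and 0.0763% (cKO) at 0 h, against 0.0433% and 0.0515% (WT) and 0.0549% and 0.0554% (cKO) at 4 h, again without overlap between the times. Complex IV took 0.289% and 0.217% (WT) and 0.259% and 0.271% (cKO) at 0 h, then 0.282% and 0.275% (WT) and 0.294% and 0.300% (cKO). Complex III took 0.115% and 0.0947% (WT) and 0.103% and 0.106% (cKO) at 0 h, then 0.102% and 0.101% (WT) and 0.0947% and 0.0976% (cKO), so that at 4 h it was lower in cKO, where complexes I, II, IV and V were higher. Complex V took 0.378% and 0.325% (WT) and 0.367% and 0.370% (cKO) at 0 h, then 0.357% and 0.383% (WT) and 0.386% and 0.387% (cKO). The values of complexes IV and V at 0 h and 4 h overlapped in WT, where sample 1 at 0 h was the higher of the pair for every complex, and not in cKO, where they were higher at 4 h.

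**Figure D1:**
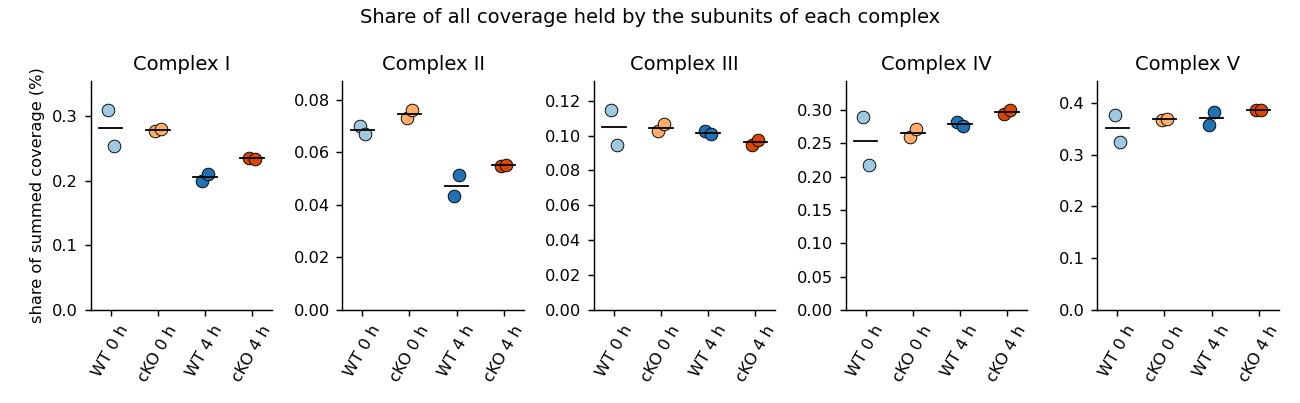
Share of the summed coverage of all genes, in percent, held by the subunits of each complex; points are the 8 samples (2 per group), lines are group means, and each axis starts at 0. On this scale complexes I and II lie lower in the 4 stimulated samples than in the 4 samples at 0 h, while complexes III to V overlap between the times in WT.

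For complexes I, II, III and V, whose genes all stood far above the pseudocount of 0.1 added before taking log2, the balance does not depend on the scaling, because any factor of a sample cancels in it. Complex IV holds genes at or near 0 and was left out here. The mean log2 level of the complex V subunits exceeded that of complex I at 0 h by 1.34 and 1.34 (WT) and 1.42 and 1.42 (cKO). At 4 h the difference was 1.84 and 1.81 (WT) and 1.65 and 1.70 (cKO). Complex V was thus further above complex I in every stimulated sample, and both WT samples were above both cKO samples at that time but below them at 0 h. For complex III against complex I the difference was 0.82 and 0.80 (WT) and 0.78 and 0.80 (cKO) at 0 h, and 1.20 and 1.09 (WT) and 0.90 and 0.96 (cKO) at 4 h. It was likewise larger after stimulation, and larger in WT than in cKO at 4 h. For complex II against complex I the difference was 1.16 to 1.40 at 0 h and 1.07 to 1.23 at 4 h, with overlap between the times. With the trend of each sample along transcript length removed, an alternative chosen after seeing the data, the difference of complex V from complex I at 4 h was 1.83 and 1.81 (WT) and 1.64 and 1.68 (cKO), and at 0 h between 1.37 and 1.43.

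**Figure D2:**
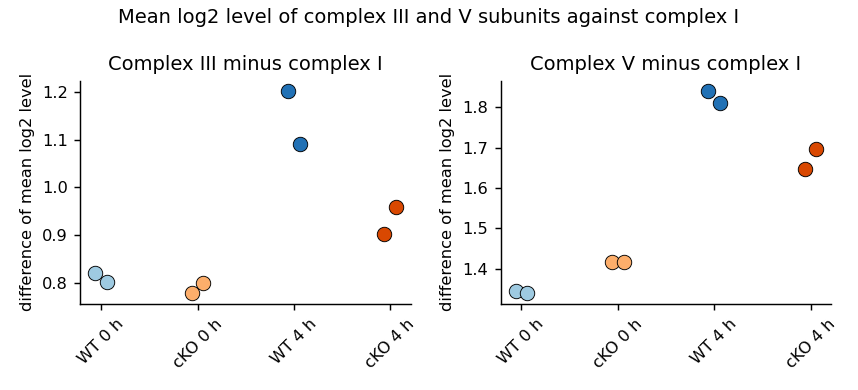
Difference between the mean log2 level of the complex III (left) or complex V (right) subunits and that of the complex I subunits in each of the 8 samples, a quantity that no scaling of samples alters; the vertical axes do not start at 0. Complex V stands 1.34 to 1.42 above complex I at 0 h and 1.65 to 1.84 at 4 h.

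The most abundant subunits per length were Atp5b, the catalytic β subunit of the ATP synthase, and Cox4i1, a nuclear subunit of cytochrome c oxidase. Cox4i1 was at 7536 and 5930.5 (WT) and 6606 and 6554 (cKO) at 0 h, and at 12171 and 8957 (WT) and 12337 and 13126 (cKO) at 4 h. Atp5b was at 5349 and 5659 (WT) and 5968 and 6085 (cKO) at 0 h, and at 15864 and 15766 (WT) and 16744 and 16230 (cKO) at 4 h. Cox4i1 thus stood above Atp5b in every sample at 0 h and below it in every sample at 4 h. The lowest of the subunits found at 100 or more on average was Ndufs6, an accessory subunit of complex I, at 184 to 235 at 0 h and 403 to 614 at 4 h.

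Several subunits have tissue-specific isoforms, and in these BMDMs the ubiquitous form was the abundant one. Cox6a1 was at 3171 to 4200.4 at 0 h, while Cox6a2, the heart and muscle form, was at 13.5 to 23.6 at 0 h and 37.3 to 118 at 4 h. Cox6b1 was at 2293 to 3400 at 0 h and Cox6b2, the testis form, at 6.51 to 46.9 in all samples. Cox7a2 was at 991 to 1419 at 0 h, Cox7a1, the muscle form, at 3.77 to 19.5 in all samples, and Cox7a2l, which is known for its role in assembling supercomplexes, at 1956 to 2471 at 0 h. Cox8a was at 1392 to 1950 at 0 h, and Cox8b was listed at 1.22 in WT sample 1 at 0 h and at 0 in the other 7. Ndufa4 was at 2136 to 5360 and Ndufa4l2, a form known for its induction in hypoxia, was listed at 0 in 6 samples, at 3.5e-04 in WT sample 1 at 0 h and at 5.13 in cKO sample 4 at 0 h. Of the genes for the c subunit of the ATP synthase ring, Atp5g2 and Atp5g3 were at 2505 to 3652 at 0 h and Atp5g1 at 1093 to 1239. Cox7b2 and Cox8c were not analysed here.

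Cox4i2, the alternative form of Cox4i1 that is known from lung and from low oxygen, was at 3.62 and 1.08 (WT) and 0.235 and 0 (cKO) at 0 h, and at 19.0 and 30.5 (WT) and 13.4 and 10.3 (cKO) at 4 h. Its ratio to Cox4i1 was at most 0.00341, in WT sample 2 at 4 h. It was called higher after stimulation in WT (log2 fold change 3.53, standard error (SE) 0.80, limma adjusted p = 0.014) and in cKO (6.02, SE 0.80, limma adjusted p = 0.00223), and on the scale of equal summed coverage the values were 2.50 and 5.39. The size depends on the pseudocount of 0.1, since 1 sample is listed at 0, and with a pseudocount of 1 it was 3.02 in WT and 3.52 in cKO. The call in WT was lost without WT sample 2 at 0 h (2.69) and without WT sample 2 at 4 h (3.20), and at equal summed coverage.

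The first question of the design is whether loss of Nudt21 altered the subunits before stimulation. At 0 h none of the 82 genes passed an adjusted p under 0.05 in limma, 0 higher against 3.06% of all 16125 genes and 0 lower against 2.52%. At an unadjusted p under 0.05, 3 were higher and 2 lower, while 22.6% of all genes were under that p. The subunits' median effect was 0.06 on the log2 scale, against 0.00 for all genes, and it was -0.10 without WT sample 2 at 0 h and 0.19 without WT sample 1 at 0 h. With an intensity-dependent variance in limma, Sdha was called higher (adjusted p = 0.021) and Cox4i2 lower (adjusted p = 0.0401), against 5.71% and 5.48% of all genes. The cKO pair lay wholly above the WT pair for 22 of the 82 genes and wholly below it for 11, against 27.3% and 29.5% of all genes.

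Sdha, the flavoprotein of complex II that oxidizes succinate, was at 1890 and 2112 (WT) and 2654 and 2751 (cKO) at 0 h, and at 2003 and 2224 (WT) and 2670.1 and 2558 (cKO) at 4 h. At each time the cKO pair lay above the WT pair, on the deposited values too. The log2 fold change was 0.44 before stimulation (SE 0.10, limma adjusted p = 0.0838) and 0.31 after it (SE 0.10, limma adjusted p = 0.104), and neither passed the threshold. With an intensity-dependent variance in limma, Sdha was called higher at both times (adjusted p = 0.021 and 0.035). The other subunits of complex II, the iron-sulfur protein Sdhb and the membrane anchors Sdhc and Sdhd, differed at 0 h by -0.11, 0.11 and 0.08 on the log2 scale, and at 4 h by 0.31 (limma adjusted p = 0.0929), -0.06 and 0.02. The ratio of Sdha to Sdhc was 0.833 and 1.05 (WT) and 1.16 and 1.18 (cKO) at 0 h, and 0.548 and 0.595 (WT) and 0.784 and 0.693 (cKO) at 4 h. The ratio of Sdha to Sdhb was 0.764 and 0.871 (WT) and 1.14 and 1.24 (cKO) at 0 h, and 0.608 and 0.762 (WT) and 0.719 and 0.639 (cKO) at 4 h, where the genotypes overlapped.

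Atp5a1 and Atp5b encode the α and β subunits that alternate in the F1 head of the ATP synthase. Atp5a1 was at 4972 and 5222 (WT) and 4418 and 4258 (cKO) at 0 h, and at 10827 and 10790 (WT) and 8732 and 8647 (cKO) at 4 h. Both cKO samples lay below both WT samples at each time. The log2 fold change was -0.23 before stimulation (SE 0.08, limma adjusted p = 0.166) and -0.31 after it (SE 0.08, limma adjusted p = 0.0518), short of the threshold both times, and on the deposited values it was -0.12 and -0.02. With an intensity-dependent variance in limma, Atp5a1 was called lower at 4 h (adjusted p = 0.01495). The ratio of Atp5a1 to Atp5b, which no scaling alters, was 0.929 and 0.923 (WT) and 0.740 and 0.700 (cKO) at 0 h, and 0.682 and 0.684 (WT) and 0.522 and 0.533 (cKO) at 4 h. The ratio was lower in cKO at both times and lower after stimulation in both genotypes. Atp5a1 shares 129 exon bases with Haus1 on the opposite strand, and the library kit named for these samples does not mark strand, so reads from the shared bases cannot be told apart.

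At 4 h of stimulation 1 of the 82 genes was called higher in cKO, against 9.90% of all genes, and 0 lower, against 8.09%. At an unadjusted p under 0.05 limma gave 11 higher and 7 lower, while 34.4% of all genes were under that p. The median of the subunits was 0.03, against 0.00 for all genes, and by complex it was 0.15 for complex I, 0.16 for complex II, -0.09 for complex III, -0.14 for complex IV and -0.11 for complex V. In complex I, 27 of the 36 genes had positive values and 9 negative ones. At equal summed coverage the medians of complexes III, IV and V were -0.0011, -0.05 and -0.02, and 2 genes were called higher, Ndufa13 and Sdhb, against 9.26% of all genes, and 0 lower, against 4.46%. On the deposited values, where the median gene stood at 0.28, the medians of all 5 complexes were positive, with 17 genes called higher, against 19.6% of all genes, and 0 lower, against 3.38%. The calls also depended on the variance estimate, since with an intensity-dependent variance 9 subunits were called higher, against 13.6% of all genes, and 5 lower, against 12.0%.

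The gene called in cKO at 4 h was Ndufa13, also known as GRIM-19, an accessory subunit that complex I needs for assembly. It lies on chromosome 8 from 69894180 to 69902558 on the minus strand (GRCm38). Ndufa13 was at 325 and 267 (WT) and 294 and 296 (cKO) at 0 h, and at 364 and 353 (WT) and 638 and 628 (cKO) at 4 h. On this scale the stimulated cKO samples stood apart from the other 6. The ratio of Ndufa13 to Ndufa12, which no scaling alters, was 1.27 and 1.13 (WT) and 0.947 and 1.14 (cKO) at 0 h, and 0.722 and 0.654 (WT) and 0.917 and 0.963 (cKO) at 4 h. At 4 h the ratio was higher in cKO, but the stimulated WT samples were the lowest. Its log2 fold change was 0.82 after stimulation (SE 0.12, limma adjusted p = 0.0145) and 8.0e-04 before it, and at equal summed coverage it was 0.91 after stimulation (adjusted p = 0.0209). Its stimulation effect was 0.28 in WT, not called, and 1.10 in cKO on the median-gene scale, but -0.77, called lower, and 0.14, not called, at equal summed coverage. The call was lost without cKO sample 3 at 4 h (0.81) or cKO sample 4 at 4 h (0.83), and when only the 4 samples of that time were fitted (0.83). Ndufa13 shares 375 exon bases with Tssk6 on the opposite strand, a testis kinase gene whose coverage was 40.8 and 38.6 (WT) and 33.1 and 43.8 (cKO) at 0 h, and 3.18 and 4.72 (WT) and 16.5 and 27.9 (cKO) at 4 h. Tssk6 was also called higher in stimulated cKO (log2 fold change 2.44, limma adjusted p = 0.0136), and the part of the shared bases in either value was not tested.

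Of the subunits near the threshold at 4 h, 5 besides Atp5a1 are described here, and none of them passed it on the median-gene scale. Cox5b, a zinc-binding subunit of complex IV on chromosome 1 from 36691449 to 36693681, was at 1989 and 1730.3 (WT) and 2862 and 2768 (cKO) (log2 fold change 0.60, SE 0.16, limma adjusted p = 0.0622). A copy of 99.2% identity over 390 bases, Gm11273, was at 163 and 198 (WT) and 215 and 252 (cKO), so that reads could be divided between them. Ndufa8, an accessory subunit with a CHCH fold, was at 847 and 943 (WT) and 1272 and 1214 (cKO) (0.48, SE 0.13, limma adjusted p = 0.0683). Both genes were higher in each cKO sample than in each WT sample. Ndufs4, an accessory subunit whose loss in mice causes a Leigh-like encephalopathy, was at 1885 and 1631 (WT) and 1209 and 1170 (cKO) (-0.56, SE 0.16, limma adjusted p = 0.0716). Ndufb11, an accessory subunit of the membrane arm, was at 954 and 854 (WT) and 707 and 658 (cKO) (-0.40, SE 0.12, limma adjusted p = 0.0749). Uqcrh, the hinge protein of complex III, was at 6911 and 5754 (WT) and 4241 and 4544 (cKO) (-0.52, SE 0.15, limma adjusted p = 0.0787). These 3 were lower in each cKO sample, and on the deposited values the differences were smaller, -0.26 for Ndufs4, -0.11 for Ndufb11 and -0.23 for Uqcrh. Those of Cox5b and Ndufa8 were larger there, 0.90 and 0.77, and both were called (limma adjusted p = 0.0202 and 0.0353). These 5 genes were called with the intensity-dependent variance, with adjusted p-values of 0.0173, 0.0201, 0.0218, 0.0232 and 0.0252 in this order.

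The plot of genotype effects sets those at 0 h against those at 4 h. Over the 77 genes with a mean level of at least 100, Pearson's r between the effects was 0.07 and Spearman's rho 0.06. The points share the scaling of their samples but no sample, and genes are not independent replicates.

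**Figure D3:**
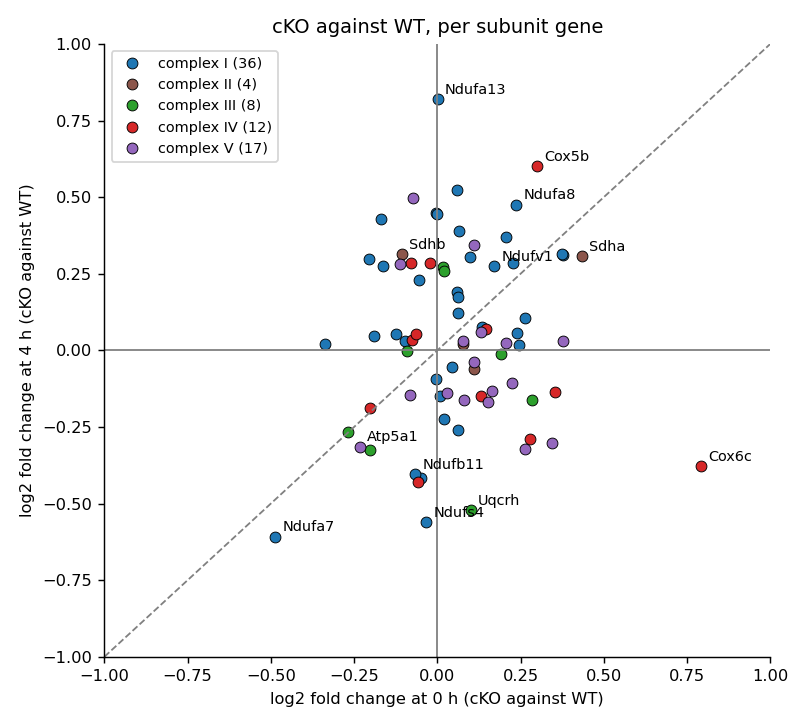
Genotype effect (log2 fold change, cKO over WT) at 0 h (horizontal) and 4 h (vertical) for the 77 subunit genes with a mean scaled coverage of at least 100, coloured by complex, on the median-gene scale; the dashed line marks equal effects. Ndufa13 has the highest value at 4 h (0.82) and Cox6c the highest at 0 h (0.79), and on the deposited values every point lies higher on both axes.

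**Figure D4:**
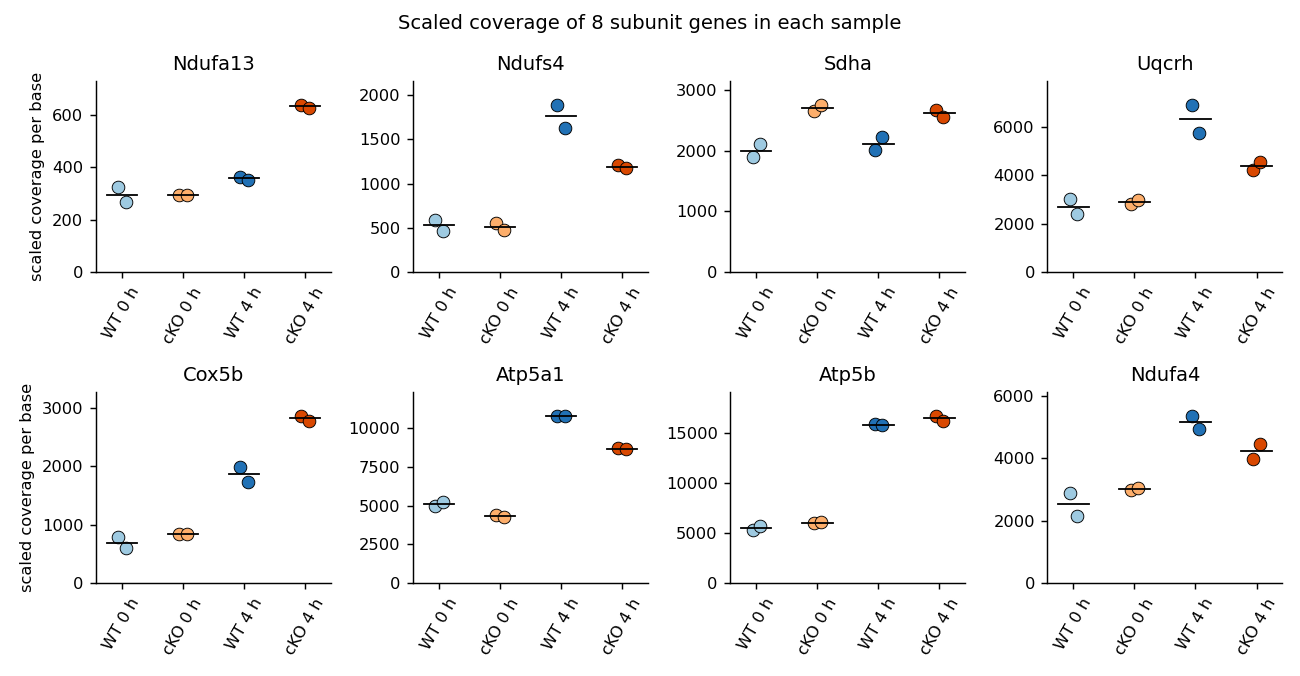
Scaled coverage per base of 8 subunit genes in the 8 samples; points are samples (2 per group), lines are group means, and axes start at 0. Levels are on the median-gene scale, on which Sdha is higher in cKO at both times, Atp5a1 lower in cKO at both times, and Ndufa13 higher in stimulated cKO samples (638 and 628) than elsewhere.

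The second question is how the subunits behaved when WT BMDMs were stimulated. Relative to the median gene, 66 of the 82 were called higher at 4 h than at 0 h, against 30.1% of all genes, and 0 lower, against 31.0%, but at equal summed coverage 5 were called higher, against 13.4%, and 21 lower, against 56.9%. The subunits' median was 0.80 on the former scale and -0.22 on the latter, above the -0.14 and -1.19 of all genes. Both samples at 4 h lay above both samples at 0 h for 74 of the 82 genes on the median-gene scale, against 36.9% of all genes, and wholly below for 0, against 41.9%. At an unadjusted p under 0.05, 69 were higher and 0 lower, while 65.1% of all genes were under that p in either direction.

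By complex, the WT medians on the median-gene scale were 0.63 for complex I, 0.57 for complex II, 1.16 for complex III, 1.30 for complex IV and 1.15 for complex V, and at equal summed coverage -0.43, -0.49, 0.11, 0.24 and 0.10. Within complex I the 7 core subunits had a median of 0.24 and the 29 accessory subunits one of 0.67, which became -0.81 and -0.38 at equal summed coverage. Of the core subunits 3 were called higher, against 30.1% of all genes, and 0 lower, against 31.0%. At equal summed coverage 0 of the 7 were called higher, against 13.4%, and 5 lower, against 56.9%. The 3 were Ndufs3, Ndufs8 and Ndufv2, with log2 fold changes of 0.75, 0.62 and 0.61 that became -0.31, -0.43 and -0.44 at equal summed coverage. Ndufs1, the largest iron-sulfur subunit, was at 799 and 822 at 0 h and at 796 and 864 at 4 h, with a log2 fold change of 0.03 (SE 0.09, limma adjusted p = 0.76), and at equal summed coverage it was called lower (-1.02). Sdha stood likewise at 0.08, and at -0.97 at equal summed coverage.

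The largest rises in WT after Cox4i2 were those of Cox8a (1950 and 1392 at 0 h, 6570 and 5075 at 4 h), Cox7b (1605 and 1052 at 0 h, 4652 and 4381 at 4 h), Ndufs4 (593 and 467 at 0 h, 1885 and 1631 at 4 h) and Cox6c (1584 and 1024 at 0 h, 4481 and 4004.5 at 4 h). Cox8a, Cox7b and Cox6c are small membrane subunits of cytochrome c oxidase. Their log2 fold changes were 1.81, 1.80, 1.74 and 1.73 in this order, with SEs of 0.23, 0.21, 0.16 and 0.27 and adjusted p-values from limma of 0.00182, 0.00127, 5.5e-04 and 0.00387. At equal summed coverage they were 0.76, 0.74, 0.68 and 0.68, still positive, and Cox8a, Cox7b and Ndufs4 were also called there while Cox6c was not. With quantile normalization they were 0.62, 0.72, 1.10 and 0.67, and of the 4 only Ndufs4 was called. Atp5b, at 1.52 (SE 0.08) and 0.47, and Cox6b1, which lies at the dimer interface of the oxidase, at 1.56 and 0.50, were called higher on both scales as well. The ratio of Ndufs4 to Ndufs1, free of scaling, was 0.743 and 0.569 at 0 h and 2.37 and 1.89 at 4 h in WT, and 0.652 and 0.603 at 0 h and 1.68 and 1.67 at 4 h in cKO.

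In cKO BMDMs 68 of the 82 were called higher with stimulation relative to the median gene, against 29.3% of all genes, and 1 lower, against 29.8%, and at equal summed coverage 8 were called higher, against 14.2%, and 19 lower, against 55.2%. The median was 0.82, or -0.14 at equal summed coverage. The medians by complex were 0.70, 0.69, 0.87, 1.22 and 1.003 for complexes I to V, and -0.26, -0.27, -0.09, 0.26 and 0.04 at equal summed coverage. After Cox4i2 the largest rises were those of Cox6a2 (13.5 and 19.6 at 0 h, 97.8 and 118 at 4 h), Cox5b (843 and 836 at 0 h, 2862 and 2768 at 4 h), Atp5k, the e subunit of the ATP synthase membrane part (451 and 476 at 0 h, 1349 and 1514 at 4 h), and Cox7a2 (1156 and 1113.5 at 0 h, 3389 and 3597 at 4 h). Their log2 fold changes were 2.72, 1.74, 1.62 and 1.62, with SEs of 0.40, 0.16, 0.25 and 0.21 and adjusted p-values from limma of 0.00328, 6.1e-04, 0.00354 and 0.00185. At equal summed coverage they were 1.76, 0.79, 0.67 and 0.66, with Atp5k no longer called, and with quantile normalization 3.003, 0.93, 1.12 and 0.68, all called. Cox6a2 shares 70 exon bases with Itgad on the opposite strand, and the part of these bases in its low values was not tested. Cox6b2 was called lower (34.8 and 46.9 at 0 h, 16.6 and 6.51 at 4 h; log2 fold change -1.95, SE 0.58, limma adjusted p = 0.0355), a call at low coverage that was lost without any 1 of cKO samples 3 and 4 at 0 h (-2.17 and -1.74), cKO sample 4 at 4 h (-1.28) and WT samples 1 and 2 at 4 h (-1.93 and -1.94). Its value at equal summed coverage was -2.90, and with quantile normalization it was -1.59 and not called.

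Subunits with large stimulation effects in WT tended to have large ones in cKO. Over the 77 genes with a mean level of at least 100, Pearson's r was 0.70 and Spearman's rho 0.66, across genes and between comparisons that share the scaling but no sample. Ndufs1 and Sdha lay near the low end in cKO too, at -0.21 and -0.05, and were called lower there at equal summed coverage (-1.17 and -1.01). Of the F1 head, Atp5b rose by 1.45 on the log2 scale in cKO (0.49 at equal summed coverage) and Atp5a1 by 1.003 (0.04, no longer called).

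The other core subunits varied among themselves. Uqcrfs1, the Rieske iron-sulfur protein of complex III, was at 1544 and 1308 (WT) and 1222 and 1136 (cKO) at 0 h, and at 3628 and 2689 (WT) and 2511 and 2681 (cKO) at 4 h. Its stimulation effect was 1.14 in both genotypes, or 0.08 and 0.18 at equal summed coverage, where it was not called. The core proteins Uqcrc1 and Uqcrc2 rose by 0.37 and 0.75 in WT and by 0.63 and 0.54 in cKO on the log2 scale, against values of -0.68, -0.31, -0.33 and -0.42 at equal summed coverage. Cox5a, a nuclear subunit of complex IV, was at 2583 to 3069 in the 4 samples at 0 h and 6286 to 8212 in those at 4 h, and rose by 1.22 in WT (0.17 at equal summed coverage, not called) and by 1.59 in cKO (0.63, called on both scales). Atp5c1, the γ subunit that turns inside the F1 head, rose by 0.74 and 0.59 (-0.31 and -0.37 at equal summed coverage).

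**Figure D5:**
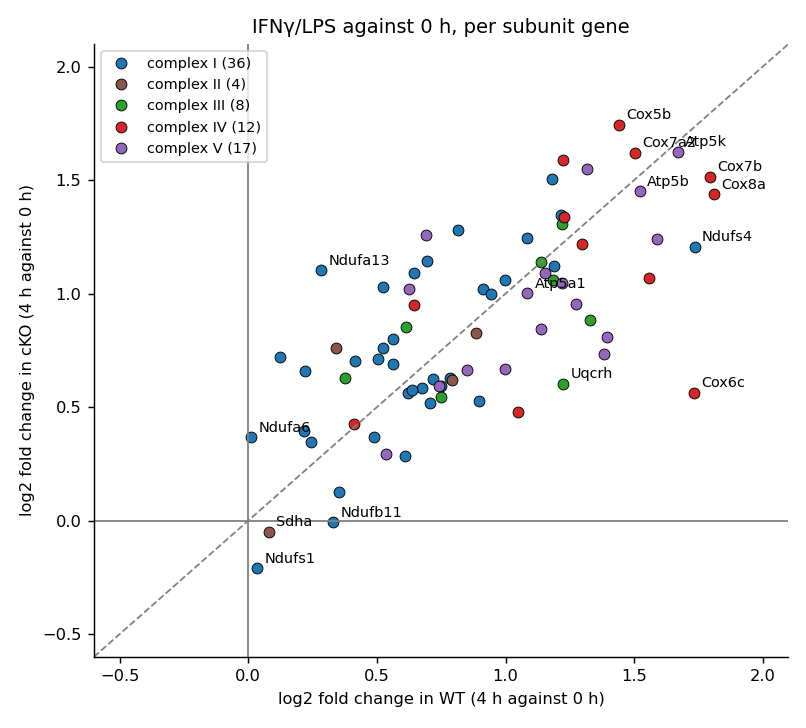
Log2 fold change of 4 h against 0 h in WT (horizontal) and in cKO (vertical) for the 77 subunit genes with a mean scaled coverage of at least 100, coloured by complex; the dashed line marks equal effects. Values are relative to the median gene; at equal summed coverage every point lies lower, and the median of the tested subunits turns from 0.80 to -0.22 in WT and from 0.82 to -0.14 in cKO.

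The third comparison tests whether stimulation acted differently in cKO and WT, as the difference of the genotype effects at 4 h and 0 h. By limma 0 of the 82 subunits were called higher, against 1.82% of all genes, and 0 lower, against 1.14%, with 3 higher and 3 lower at an unadjusted p under 0.05, while 22.4% of all genes were under it. Ndufa13 came closest (0.82, SE 0.16, limma adjusted p = 0.0753), and it was called with the intensity-dependent variance (adjusted p = 0.0239). The median was -0.06, with 0.11 for complex I, -0.06 for complex III and -0.17 for complex V, where 14 of 17 genes were negative. At equal summed coverage, where the median of all genes was 0.11 in place of 0.02, these were 0.03, 0.20, 0.03 and -0.08, with 10 of the 17 negative. For Cox6c, at 1584 and 1024 (WT) and 2042 and 2381 (cKO) at 0 h and 4481 and 4004.5 (WT) and 2759 and 3852 (cKO) at 4 h, the difference was -1.17 (SE 0.39, limma adjusted p = 0.172), and it too did not pass.

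The remaining 13 subunits are encoded by mitochondrial DNA and transcribed apart from the nuclear genes. At 4 h all 13 were lower on average in cKO relative to the median gene (log2 fold change -0.46 to -0.23, median -0.30) and at equal summed coverage (median -0.21), but on the deposited values 7 were positive and 6 negative. Only mt-Nd3 was called lower, on the median-gene scale, where 8.09% of all genes were, and 0 of 13 were called on the other 2 scales, against 4.46% of all genes lower at equal summed coverage and 3.38% on the deposited values. mt-Nd3 was at 4598 and 4637 (WT) and 3643 and 3534 (cKO) at 0 h, and at 5365 and 5008 (WT) and 3760 and 3956 (cKO) at 4 h, giving log2 fold changes of -0.36 and -0.43 (SE 0.08, limma adjusted p = 0.0299 for the latter). With stimulation in WT, 5 of the 13 (mt-Co1, mt-Co2, mt-Co3, mt-Atp6 and mt-Atp8) were called higher relative to the median gene, against 30.1% of all genes. The largest change was that of mt-Co1 (170050 and 204840 at 0 h, 277890 and 250420 at 4 h, log2 fold change 0.50). Each of these 5 calls was lost on leaving out WT sample 1 at 0 h, and also without WT sample 1 at 4 h. Those of mt-Co2, mt-Co3 and mt-Atp8 were lost without several other samples too, cKO samples among them. At equal summed coverage 13 of 13 were called lower, against 56.9% of all genes. In cKO none was called relative to the median gene (0 at an unadjusted p under 0.05 by limma), against 29.3% of all genes called higher, 29.8% called lower and 63.9% under that p, and 13 were called lower at equal summed coverage, against 55.2% of all genes. The median of the 13 was 0.26 in WT and -0.03 in cKO, below the 0.80 and 0.82 of the nuclear subunits, and at equal summed coverage it was -0.79 and -0.99, below -0.22 and -0.14.

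Assembly factors build the complexes without staying in them, and 46 of 47 were tested. With stimulation in WT 14 were called higher and 13 lower relative to the median gene (median 0.06), and 3 higher and 30 lower at equal summed coverage. In cKO 12 were higher and 15 lower, and at equal summed coverage 3 and 32. The shares of all genes called were 30.1% higher and 31.0% lower in WT and 29.3% and 29.8% in cKO, and at equal summed coverage 13.4% and 56.9% in WT and 14.2% and 55.2% in cKO. Sco1 and Cox17, which deliver copper to cytochrome c oxidase, rose in WT by log2 fold changes of 3.75 and 2.44, and Tmem126b, a factor of complex I, fell by 2.44, and at equal summed coverage the directions were the same. Sco2, another copper protein of the oxidase, fell, from 288 and 321 at 0 h to 97.8 and 69.8 at 4 h in WT (-1.88, or -2.93 at equal summed coverage). Between genotypes at 4 h 3 were called higher (Coa7, Coa5 and Ecsit, with log2 fold changes of 1.56, 1.07 and 0.58) and 1 lower (Foxred1, -0.55), against 9.90% and 8.09% of all genes. At equal summed coverage 3 were higher and 0 lower, against 9.26% and 4.46%, and on the deposited values 13 and 0, against 19.6% and 3.38%. Coa5, an assembly factor of complex IV, was at 918 and 867 (WT) and 1915 and 1831 (cKO) at 4 h, and at 324 and 378 (WT) and 419 and 424 (cKO) at 0 h. The log2 fold change after stimulation was 1.07 (SE 0.11, limma adjusted p = 0.00705), or 1.15 at equal summed coverage, and before it 0.27.

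Of 24 mobile carriers, entry enzymes and exchange proteins, 12 were called higher and 7 lower with stimulation in WT, and 12 higher and 6 lower in cKO, and at equal summed coverage 4 higher and 15 lower in WT and 3 higher and 14 lower in cKO. Of all genes, 30.1% and 31.0% were called in WT and 29.3% and 29.8% in cKO, or 13.4% and 56.9% and 14.2% and 55.2% at equal summed coverage. Cycs, cytochrome c, was at 728 and 577 (WT) and 816 and 821 (cKO) at 0 h, and at 5443 and 4741 (WT) and 5005 and 5160 (cKO) at 4 h. Its rise was 2.97 in WT and 2.63 in cKO on the log2 scale, and 1.92 and 1.68 at equal summed coverage. Gpd2, the mitochondrial glycerol-3-phosphate dehydrogenase that passes electrons to ubiquinone, rose by 3.68 in WT and 3.16 in cKO, and by 2.63 and 2.199 at equal summed coverage. At 0 h Gpd2 was called higher in cKO, at 170 and 206 (WT) and 319 and 349 (cKO) (log2 fold change 0.84, SE 0.13, limma adjusted p = 0.0349), or 0.83 at equal summed coverage. At 4 h Slc25a5, an ADP/ATP carrier, was called lower in cKO (-0.40) and Coq8a, a protein of ubiquinone synthesis, higher (1.24), while Coq8a was called lower at 0 h (-1.59). At equal summed coverage neither Slc25a5 at 4 h (-0.32) nor Coq8a at 0 h (-1.60) was called.

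Of the 21 regulators and related proteins 20 were tested, and with stimulation 12 were called higher and 6 lower in WT and 12 higher and 4 lower in cKO, while at equal summed coverage, with all 21 tested, 6 were higher and 10 lower in WT and 5 higher and 11 lower in cKO. The corresponding shares of all genes were 30.1% and 31.0% (WT) and 29.3% and 29.8% (cKO), and 13.4% and 56.9% (WT) and 14.2% and 55.2% (cKO) at equal summed coverage. Between genotypes 2 were called higher at 0 h, Higd1a (0.98) and Gabpb1 (0.76), and 0 lower, against 3.06% and 2.52% of all genes. At 4 h 3 were called higher, Yy1 (0.77), Polrmt (0.63) and Pprc1 (0.43), and 2 lower, AA467197 and Hif1a, against 9.90% and 8.09%. AA467197, a paralogue of Ndufa4 also called Nmes1 or C15ORF48 in humans, was at 15.5 and 20.1 (WT) and 23.4 and 16.6 (cKO) at 0 h, and at 21637 and 14910 (WT) and 7898 and 7955 (cKO) at 4 h. The stimulation effect was 9.98 in WT and 8.64 in cKO on the log2 scale (8.93 and 7.69 at equal summed coverage). After stimulation it was lower in cKO (log2 fold change -1.18, SE 0.27, limma adjusted p = 0.0424), and the difference of the stimulation effects did not pass (-1.34, adjusted p = 0.134). The ratio of AA467197 to Ndufa4 was 0.00537 and 0.00941 (WT) and 0.00784 and 0.00543 (cKO) at 0 h, and 4.04 and 3.02 (WT) and 1.99 and 1.79 (cKO) at 4 h, so that the paralogue stood above Ndufa4 in all 4 stimulated samples and less so in cKO. Ndufa4 itself was at 2894 and 2136 (WT) and 2984 and 3052 (cKO) at 0 h, and at 5360 and 4938.5 (WT) and 3975 and 4451 (cKO) at 4 h.

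Hif1a, which is known to bring about the glycolytic programme in activated macrophages, was at 1150 and 1191 (WT) and 1007 and 1058 (cKO) at 0 h and at 11815 and 11322 (WT) and 8731 and 8438 (cKO) at 4 h. It was called lower in stimulated cKO (log2 fold change -0.43, SE 0.08, limma adjusted p = 0.0275), but not at equal summed coverage (-0.35, adjusted p = 0.0999). Higd1a, which associates with the respiratory complexes under low oxygen, rose by 3.49 in WT and 2.37 in cKO (2.44 and 1.41 at equal summed coverage). Twnk, the mitochondrial DNA helicase, and Polrmt, the mitochondrial RNA polymerase, fell by 3.12 and 1.80 on the log2 scale in WT, with -4.16 and -2.85 at equal summed coverage. The fall of Twnk was -2.14 without WT sample 1 at 4 h and -4.07 without WT sample 2 at 4 h. Tfam, which packages mitochondrial DNA, was at 207 to 249 in all samples on the median-gene scale. At equal summed coverage every level at 4 h stands lower against 0 h than on that scale. Of the genotype calls named among mitochondrially encoded subunits, assembly factors, carriers and regulators, all but that of Coa5 were lost on leaving out at least 1 of the 8 samples, with no change of direction.

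The subunit genes share short transcripts and short 3′UTRs, which the rule did not use. Over the 82 with a transcript in GENCODE M21, the median transcript length was 764 bases and the median 3′UTR 157.5 bases, against 2908 and 967 bases for the 13564 tested genes with a transcript. No UGUA was present in the 3′UTR of 38 of the 82 (46.3%), against 14.6% of those genes. The longest 3′UTRs belonged to Atp5g1 (4252 bases, 26 UGUA), Ndufab1 (2944 bases, 8 UGUA) and Sdhc (2636 bases, 14 UGUA), and their genotype effects (log2) at 4 h were -0.14, 0.11 and -0.06, none of them called. Among the tested subunits the median at 4 h was 0.12 for the 37 without UGUA and -0.01 for the 44 with it, against 0.00 and 0.01 over all genes, while at 0 h it was 0.06 for both.

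Differences between samples also varied with transcript length. For transcripts of up to 600 bases the median stimulation effect in WT was 1.18 for 24 subunits and 0.50 for 244 other genes, and for those over 2000 and up to 4000 bases it was 0.56 for 7 subunits and -0.18 for 5418 others. Between WT samples 1 and 2 at 0 h, replicates of each other, 73 of 82 subunits were higher in sample 1, by a median of 0.32 (log2), and over 81 subunits the difference had a Spearman's rho of -0.62 with transcript length. The corresponding medians were 0.16 between the WT samples at 4 h, -0.01 between the cKO samples at 0 h and -0.05 between those at 4 h. The part of length in the stimulation effect was not tested beyond removing each sample's trend, after which the medians were 0.62 in WT and 0.68 in cKO. Reads of some subunits may also be divided: 17 of the 83 have a copy elsewhere of at least 95% identity over 300 bases or more, among them Atp5l, Atp5h, Atp5g2, Ndufab1 and Uqcrb, and 30 share exon bases with another gene, among them Cox6c with Vps13b, Uqcrc2 with Pdzd9 and Atp5j with Gabpa.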

How the data were processed

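RNA-seq coverage was analysed for 8 samples, 2 per group. The authors aligned reads with HISAT2 2.2.1 to GRCm38 (mm10) and used StringTie 2.1.7, and the deposited value, read as such from the tables, is the mean coverage per base of each gene, with no scaling between samples. The tables' own columns of fold changes, p-values and classes were not used. Coverage was scaled by the median of ratios over 12863 genes, genes with a mean under 0.5 were left out, and log2(value + 0.1) was fitted with limma 3.58.1 (R 4.3.3) over all 8 samples, so fold changes are on that scale and understate those of low genes. Genes with a Benjamini-Hochberg adjusted p under 0.05 over all tested genes were called. The fit was tested on simulated data. Nothing states that the 2 samples of a group were independent cultures beyond their pooled mice, so p-values measure the spread between these samples. With 2 samples against 2 an exact permutation test cannot go below 0.333 and was not used.

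Members and gene lists were chosen with earlier results of these data known. Named singly were the 5 largest rises and falls among the calls of each comparison, core subunits and isoform sets, together with AA467197 and the ratios, and genes close to the threshold, which were chosen after their values were seen. Transcript lengths, 3′UTRs and shared exons came from GENCODE M21 (82 of the 83 genes and 16628 of 21080 symbols matched), copies from blastn 2.17.0 (at least 95% identity over 300 bases) and promoters from RefSeq (68 of 83 matched). Alternatives were the deposited values, equal summed coverage, quantile normalization, another filter and pseudocount, an intensity-dependent variance, a fit of one time only, a replicate block, a fold rule, leaving out each sample, and removing the length trend, the last chosen after seeing the data. Some items are not reported here.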

Additional observations from a re-analysis of the deposited data

Results flagged for a closer look

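For 2 genes of the surrounding lists, Coq8a and Yy1, the interaction term in limma was called higher, where no subunit gene passed. These lists held 13, 46, 24 and 20 tested genes. Of all genes, 1.82% were called higher and 1.14% lower. Coq8a, a protein of ubiquinone synthesis, was at 146 and 152 (WT) and 46.4 and 52.7 (cKO) at 0 h, and at 10.2 and 15.05 (WT) and 26.0 and 33.0 (cKO) at 4 h. It was thus lower in cKO before stimulation and higher after it, and the difference of the effects was 2.82 on the log2 scale (SE 0.32, limma adjusted p = 0.0243). Yy1, a transcription factor with known sites in promoters of respiratory genes, was at 713 and 741 (WT) and 663 and 633 (cKO) at 0 h, and at 489 and 448 (WT) and 761 and 835 (cKO) at 4 h. The difference of its effects was 0.93 (SE 0.14, limma adjusted p = 0.0431). The call of Yy1 was lost on leaving out any 1 of the 8 samples. That of Coq8a was lost without any 1 of the samples at 0 h or of the cKO samples at 4 h. Over all samples left out, the differences were 0.86 to 1.003 (Yy1) and 2.55 to 3.11 (Coq8a).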

How the results depend on the processing

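The stimulation effect on the subunits depended on the scale. In WT, where 66 genes were called higher and 0 lower with a median of 0.80, the deposited values gave 4 and 28 (median -0.27; 12.9% and 58.2% of all genes), equal summed coverage 5 and 21 (-0.22; 13.4% and 56.9%) and quantile normalization 8 and 16 (-0.0014; 24.1% and 33.0%). In cKO, where the counts were 68 and 1 and the median 0.82, they were 9 and 17 (-0.10; 14.5% and 54.5%), 8 and 19 (-0.14; 14.2% and 55.2%) and 10 and 20 (-0.066; 23.0% and 33.4%). As a share of all coverage, the summed level at 4 h over 0 h was -0.08 (WT) and -0.03 (cKO) on the log2 scale. The mean log2 level of the scaled values, a different measure taken per gene, was higher at 4 h by 0.88 and 0.85. Summed, the scaled values were 132050 and 109890 (WT) and 124960 and 125970 (cKO) at 0 h. At 4 h they were 253860 and 222820 (WT) and 234760 and 243520 (cKO). With the length trend removed, 1 gene was lower in WT (31.3%) and the medians were 0.62 and 0.68. With an intensity-dependent variance 2 were lower in cKO (31.5%).

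For the genotype effect at 0 h, 1 gene was called lower with a mean of at least 5 (4.83% of all genes), 1 higher and 1 lower with the intensity-dependent variance (5.71% and 5.48%), 1 higher with the length trend removed (4.08%), and 1 higher and 1 lower by a fold above 1.5 with an unadjusted p under 0.05 (5.82% and 6.31%). At 4 h the deposited values gave 17 higher (median 0.33; 19.6% of all genes), equal summed coverage 2 (9.26%), a mean of at least 5 gave 3 higher and 3 lower (14.6% and 13.4%), the intensity-dependent variance 9 and 5 (13.6% and 12.0%), the 4 h samples alone 0 higher (1.15%), removal of the length trend 10 and 6 (12.9% and 13.1%), and the fold rule 2 and 1 (11.6% and 9.28%). For the difference of the effects, the median was 0.12 on the deposited values, 1 gene was higher with the intensity-dependent variance (3.93%) and 1 with the length trend removed (2.62%), and the fold rule gave 2 higher and 3 lower (9.38% and 6.64%). The cause of these changes was not tested.

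Leaving out 1 sample at a time gave a median genotype effect of the subunits of -0.10 to 0.19 at 0 h and -0.03 to 0.08 at 4 h. The median stimulation effect was then 0.70 to 0.98 in WT and 0.79 to 0.88 in cKO, and the median difference of the effects -0.13 to 0.11. The number of genes called varied with the sample left out, among the subunits and over all genes. For the 12 calls named by the rule on the largest changes, no direction was reversed under any alternative run, while other genes named in the report turned negative at equal summed coverage, as given there.

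Samples of WT and cKO carry numbers that recur at 0 h and 4 h. Their deviations from the group means correlated at 0.02 (WT) and 0.03 (cKO) over 16125 genes, and the main fit did not take the numbers as pairing. A correlation over all genes with 2 samples per group cannot decide whether equal numbers mark the same cells. Among the subunits, WT sample 1 was above WT sample 2 for 73 of 82 at 0 h and 62 of 82 at 4 h. In cKO, sample 3 was above sample 4 for 38 and 32 of 82. With a replicate block 62 genes were higher in WT (27.9% of all genes) and 64 higher and 0 lower in cKO (26.9% and 26.3%), with Cox6b2 (-1.95) no longer called. Limits are the 2 samples per group, an unknown number of reads behind each value, and no scale that is independent of the change in the median gene at 4 h.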
